A study of Homo sapiens with 16 samples.

Results

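The T-cell receptor loci were described in ATAC-seq peak lists of DND41 and MOLT4 cells, both of them human leukaemia lines of T-cell origin (T-ALL). ATAC-seq uses the Tn5 transposase to insert adapters where chromatin is open, and a peak is a stretch with many insertions. The members were all peaks in hg19 windows on chromosome 14 from 22050000 to 23050000 (TRA with the nested TRD), on chromosome 7 from 141990000 to 142520000 (TRB) and on chromosome 7 from 38270000 to 38420000 (TRG). Overlapping peaks (by 1 base or more) from the different libraries were joined into regions, and each library either had a peak in a region or had none. This gave 107 regions of 131357 on chromosomes 1 to 22 and X, with 32 in TRA/TRD, 59 in TRB and 16 in TRG. The presence of a peak in at least 1 library chose the members, so that presence is not a result.

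There were 8 groups of 2 libraries: each line was given DMSO or 100 nM ACBI-1 and taken at 3 h or 24 h. ACBI-1 is a degrader (PROTAC) of SMARCA2 and SMARCA4, the ATPases of the chromatin remodeller SWI/SNF, and of its subunit PBRM1. Each line is 1 established leukaemia line, and a difference between lines has no replicate of donors behind it. Nothing in the labels says that paired libraries were separate cultures, so the p-values below cover the spread between these libraries only, and that spread may be technical. The groups follow the sample titles, since the cell line field named the other line in 8 of the 16 samples. Libraries grouped by title did not overlap in their numbers of regions at TRG and TRA/TRD, as described below. The difference at TRG was known when the windows were chosen, so this is not independent support for the titles. It also cannot show which group is DND41.

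T-cell receptors are made of alpha and beta or of gamma and delta chains, and each chain gene is assembled from variable (V), diversity (D, in TRB and TRD only), joining (J) and constant (C) segments. V(D)J recombination, carried out by RAG1 and RAG2, joins segments and usually deletes the DNA between them. TRD lies between the V and J segments of TRA, so that joining a V to a J segment of TRA deletes TRD from that chromosome. Along chromosome 14 the TRA V segments come first, then TRD, then the TRA J segments and the constant gene, with the alpha enhancer beyond it. TRB runs in the same direction on chromosome 7, with its constant genes and enhancer near the high-coordinate end. TRG lies on the minus strand, with its V segments towards high coordinates and its constant genes towards low coordinates. In T-cell leukaemia the rearrangement of these genes is shared by the cells of a clone and is used to follow it. The gene table at hand is on GRCh38, so no segment, gene or enhancer was assigned to any hg19 region, and markers of the T lineage were not looked up.

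A missing peak has more than 1 possible reading. Read depth is unknown, and closed chromatin, DNA deleted by V(D)J recombination and a weak signal below the detection limit cannot be told apart from peak positions.

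At TRG, DND41 had peaks over the whole high-coordinate side of the window and MOLT4 only at its edges. DND41 DMSO libraries had a peak in 13 and 12 regions at 3 h and in 11 each at 24 h, a mean of 11.8 ± 0.957 (SD, n = 4). MOLT4 DMSO libraries had 4 and 5 regions at each time, a mean of 4.5 ± 0.577 (SD, n = 4). The lines did not overlap, also with ACBI-1, where DND41 had 9 to 11 regions and MOLT4 3 or 4. After a stretch of 97.4 kb without a peak in DND41, 11 regions found in at least 4 of its 8 libraries followed each other at a median spacing of 4.26 kb, with a range of 0.723 to 5.2 kb.

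Of those regions, 8 had no peak in any MOLT4 library. Those from 38375053 to 38375839, from 38385122 to 38385647, from 38389241 to 38389956 and from 38398523 to 38399065 had a peak in all 8 DND41 and no MOLT4 libraries (exact permutation test within time and treatment, adjusted p = 0.0111 each). In the first of these the DND41 peaks were 587 and 356 bp with DMSO and 290 and 389 bp with ACBI-1 at 3 h, and 414 and 572 bp with DMSO and 709 and 521 bp with ACBI-1 at 24 h. Widths with ACBI-1 thus lay on both sides of the DMSO widths. The region from 38385122 to 38385647 had narrower peaks, of 209 to 487 bp over the 8 DND41 libraries. The others were less regular within DND41. The region from 38392989 to 38393488 was in 7 DND41 libraries (adjusted p = 0.0184, exact permutation test), and those from 38370464 to 38370854 and from 38397867 to 38398276 in 6 each (adjusted p = 0.0311). The region from 38379893 to 38380475 had peaks in every DND41 DMSO library and in 1 DND41 ACBI-1 library (adjusted p = 0.0433, exact permutation test).

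Over the whole genome 23.3% of 11709 regions that could be tested were called more often in DND41, and 40.8% more often in MOLT4. Of the 107 receptor regions 30 could be tested, and 19 were called more often in DND41 and 6 more often in MOLT4. Of the 19, 8 lay in TRA/TRD, 8 in TRG and 3 in TRB, and all 6 called more often in MOLT4 lay in TRB. The calls of TRA/TRD and of TRG each fell within the long MOLT4 stretch without a peak described below. They are thus neighbours and not separate observations. The difference at TRG was known when these windows were chosen, so its calls are not independent evidence. When every list was shortened to its 26145 widest peaks, 11 receptor regions were called more often in DND41. Among regions that could still be tested, the call between lines was lost in the unstratified test for the region of TRG that starts at 38379893 and those of TRB that start at 142153068 and 142231429, with a common minimum peak width for the TRG region that starts at 38370464, and with the shortened lists for the TRB region that starts at 142003348. By a rule without a test, 382 of all regions, or 0.291%, were in all 8 DND41 and no MOLT4 libraries, and 6 of these lay in the receptor windows.

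The same contrast was taken over regions that a line had in at least 3 of its 4 DMSO libraries. Of those of DND41, MOLT4 had no peak in any library at 11 of 14 in TRA/TRD (78.6%), 8 of 12 in TRG (66.7%) and 3 of 31 in TRB (9.68%), beside 12.8% over the genome. Of those of MOLT4, DND41 had no peak at 5 of 30 in TRB (16.7%), at none of 3 in TRA/TRD and at none of 4 in TRG, beside 19.7%. The shares at TRA/TRD and TRG stood above the genome's for DND41 and that at TRB near it in both directions, with no test.

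**Figure D1:**
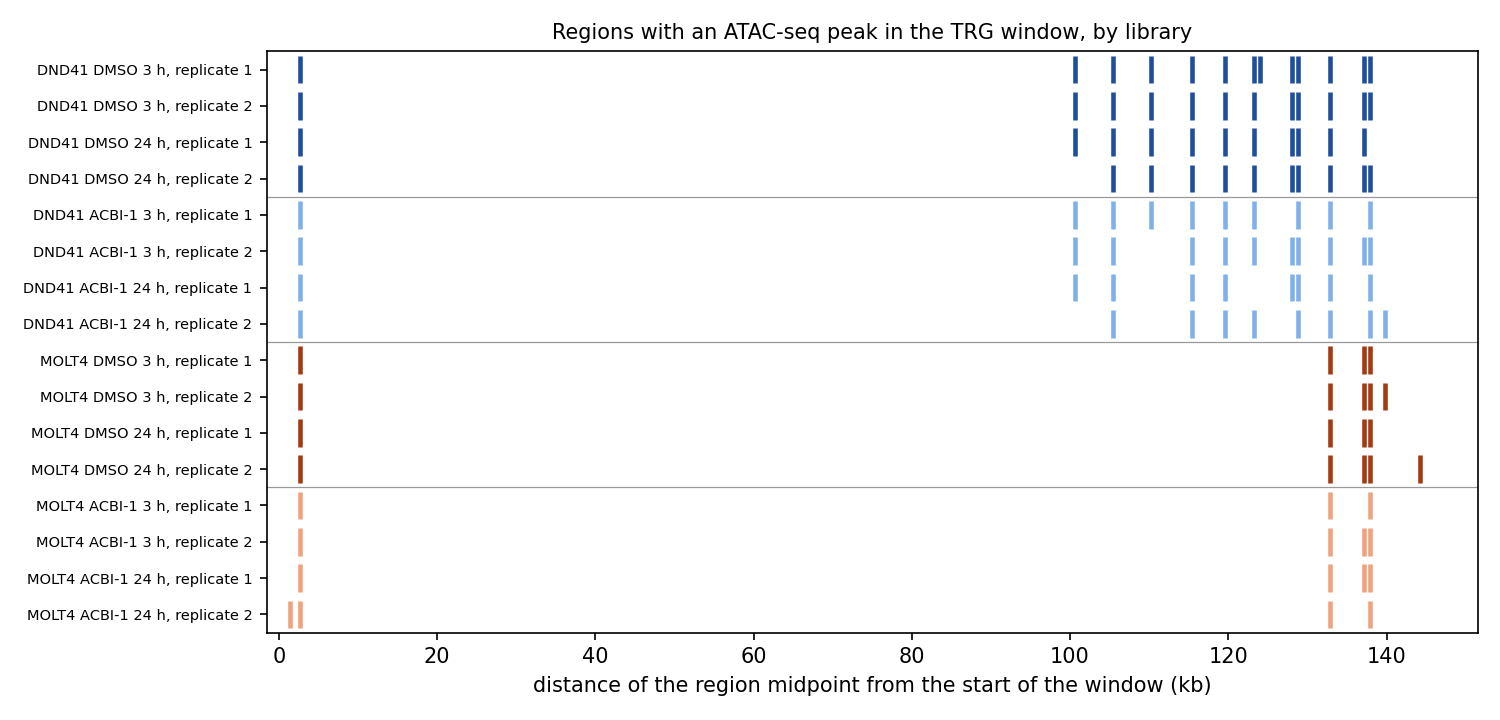
Regions with a peak in the TRG window by library. Each row is 1 library, grouped by line and treatment, the x axis is the distance of the region midpoint from the window start in kb, and each mark is a region with a peak (marks are not drawn to width). Both lines have marks at the low end and at the high end, and only the DND41 rows have the series of marks between them.

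The regions of TRG shared by the lines lay at both ends of this series. The region from 38272175 to 38273110, at the low-coordinate end, was in all 16 libraries. Its peaks were 628 to 896 bp in DND41 and 500 to 836 bp in MOLT4 with DMSO. With ACBI-1 they were 577 to 720 bp in DND41 and 292 to 510 bp in MOLT4. The region from 38402173 to 38403424 was also in all 16 libraries, with 506 to 1145 bp under peaks in DND41 (median 640) and 364 to 669 bp in MOLT4 (median 405), so the lines overlapped. Its log2 width was -0.55 (SE 0.16) in MOLT4 relative to DND41 (exact permutation p = 0.00617, adjusted 0.0572 over 12037 regions found in all libraries). That of 38272175 to 38273110 was -0.37 (SE 0.15; exact permutation p = 0.0278, adjusted 0.127). The region from 38407640 to 38408132 was in 15 libraries. The region from 38406899 to 38407312 was in all 8 DMSO libraries and, with ACBI-1, in 1 of 4 for DND41 and 2 of 4 for MOLT4.

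In MOLT4 no library had a peak between these shared regions, from 38273011 to 38402701, a stretch of 130 kb. It held 9 regions of DND41, of which 8 were in at least 4 of its 8 libraries. Among the 78818 stretches between neighbouring peaks of MOLT4, only 2 held more such DND41 regions. The difference at TRG was known when the windows were chosen, so this rank is not independent evidence. The rank was also not matched for length. The length of the stretch was not unusual, since 4.88% of the stretches were as long or longer.

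At TRA/TRD the difference between the lines covered nearly the whole window. DND41 DMSO libraries had a peak in 19 and 14 regions at 3 h and in 19 each at 24 h, a mean of 17.8 ± 2.5 (SD, n = 4). Every MOLT4 DMSO library had 3 regions, and MOLT4 ACBI-1 libraries had 3 each at 3 h and 2 each at 24 h. The lowest DND41 library, ACBI-1 at 3 h replicate 1 with 9 regions, lay above all MOLT4 libraries. No MOLT4 library had a peak from 22025820 to 23024987, a stretch of 999 kb that begins before the window. It was the 32nd longest of the 78818 stretches of MOLT4, and 0.0406% were as long or longer. It held 29 regions of DND41, 12 of them in at least 4 of 8 libraries, and no other MOLT4 stretch held so many. Longer stretches can hold more regions, and this count was not matched for length.

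**Figure D2:**
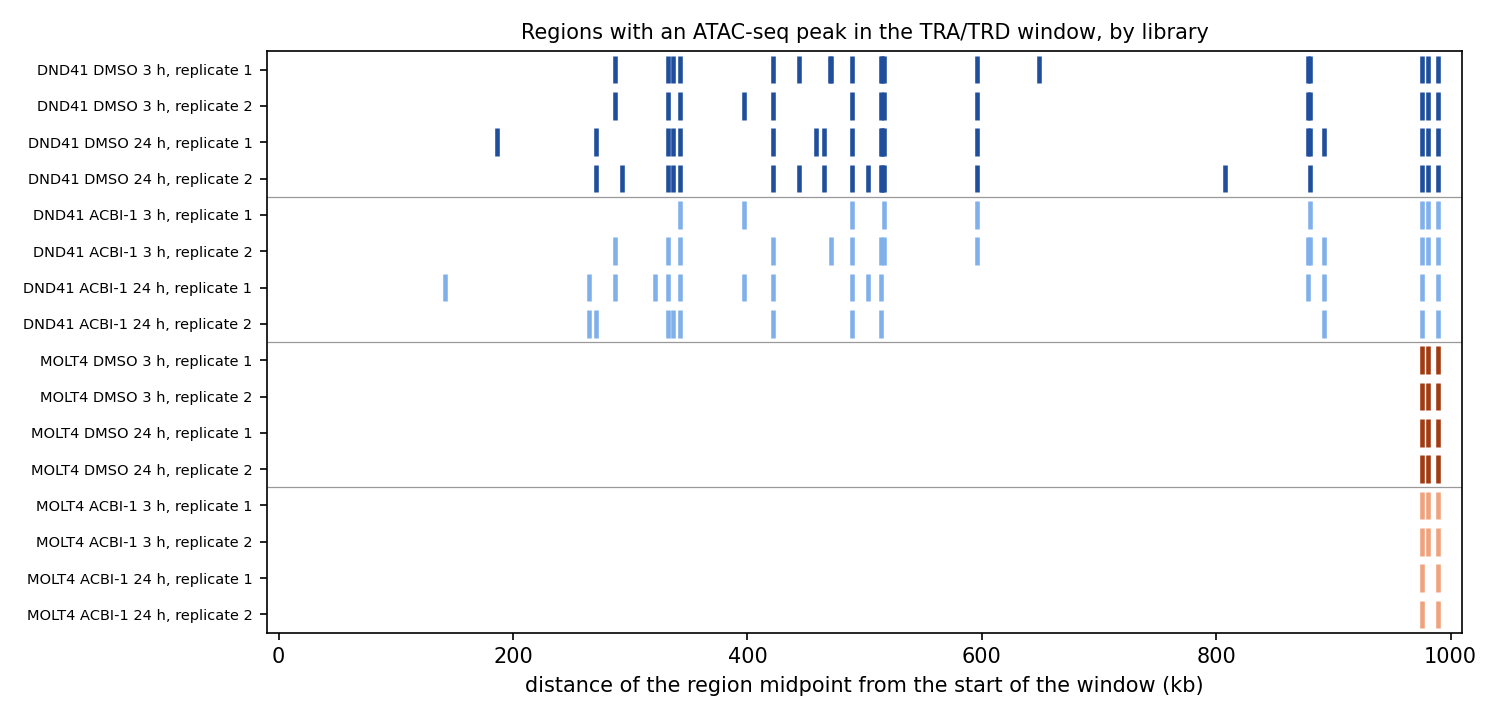
Regions with a peak in the TRA/TRD window by library. Rows, x axis (kb from the window start) and marks are as for TRG, and marks are not drawn to width. DND41 rows have marks from the left part of the window onwards, and MOLT4 rows only the 2 or 3 marks at the right end.

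The DND41 regions fell into groups along the locus. The first group lay at lower coordinates. There the regions from 22391960 to 22393028 and from 22538556 to 22539691 were in all 8 DND41 libraries (exact permutation test, adjusted p = 0.0111 each). The peaks of the second were 571 and 617 bp with DMSO and 305 and 637 bp with ACBI-1 at 3 h, and 685 and 877 bp with DMSO and 735 and 963 bp with ACBI-1 at 24 h. ACBI-1 widths at 24 h were thus within or above the DMSO range. Those from 22382031 to 22382285, from 22470982 to 22471967 and from 22564151 to 22564394 were in 7 DND41 libraries (exact permutation test, adjusted p = 0.0184 each), and in each case ACBI-1 at 3 h replicate 1 was the library without a peak. That library had the shortest peak list of all, with 26145 peaks, beside 31380 in its replicate. Those from 22385983 to 22386494 (4 DND41 libraries) and from 22564858 to 22565218 (3 DND41 libraries, all DMSO) could not be tested.

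Another 3 regions of DND41 had a peak in all 4 DMSO libraries and in both ACBI-1 libraries at 3 h and in neither at 24 h. They lay from 22565981 to 22566433, from 22645656 to 22646694 and from 22929410 to 22929996 (exact permutation test between lines, adjusted p = 0.0267 each). The middle one was 607 and 232 bp wide with DMSO and 566 and 691 bp with ACBI-1 at 3 h, and 892 and 868 bp with DMSO at 24 h. The region from 22927828 to 22928147 was in 5 DND41 libraries and its difference between lines did not pass the test (adjusted p = 0.0594, exact permutation test). DND41 itself had no peak in any library from 22699183 to 22857607 (158 kb) or from 22942226 to 23024831 (82.6 kb). MOLT4 had none there either.

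Only 3 TRA/TRD regions had peaks in MOLT4, and all 3 were also in DND41. They lay together at the high-coordinate end. The region from 23024832 to 23026452 was in all 16 libraries and had the largest mean width of the receptor regions, 985 bp. At 3 h the widths were 827 and 616 bp with DMSO and 932 and 715 bp with ACBI-1 in DND41, and 622 and 917 bp with DMSO and 674 and 899 bp with ACBI-1 in MOLT4. At 24 h they were 922 and 1286 bp with DMSO and 1250 and 1270 bp with ACBI-1 in DND41, and 1211 and 1316 bp with DMSO and 1122 and 1182 bp with ACBI-1 in MOLT4. The lines and arms overlapped at each time. The region from 23039201 to 23039713 was also in all 16 libraries, with narrower peaks of 165 to 502 bp.

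The third shared region, from 23030571 to 23031211, met none of the rules by which regions were named. It was named after its values were seen, and no share over the genome is given for its pattern in both lines together. Its presence by treatment and time was the same in both lines. It had a peak in all 8 DMSO libraries, with widths of 537, 356, 570 and 489 bp in DND41 and 410, 520, 433 and 401 bp in MOLT4. It was kept in all 4 ACBI-1 libraries of 3 h, at 495 and 380 bp in DND41 and 352 and 378 bp in MOLT4. It had no peak in any of the 4 ACBI-1 libraries of 24 h. By its numbers of peaks per line and time this region could not reach a p of 0.05 in the test of treatment over both times, so it has no test.

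TRB had peaks in both lines along most of its length. DND41 DMSO libraries had a peak in 40 and 29 regions at 3 h and 31 and 30 at 24 h, a mean of 32.5 ± 5.07, and MOLT4 DMSO libraries in 35 and 33 at 3 h and 32 each at 24 h, a mean of 33 ± 1.41 (SD, n = 4 each). The lines overlapped. Of the 40 TRB regions found in at least 4 libraries, 33 had peaks in both lines, or 82.5%, beside 79.7% of such regions over the genome. The same share was 20% of 15 at TRA/TRD and 33.3% of 12 at TRG.

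**Figure D3:**
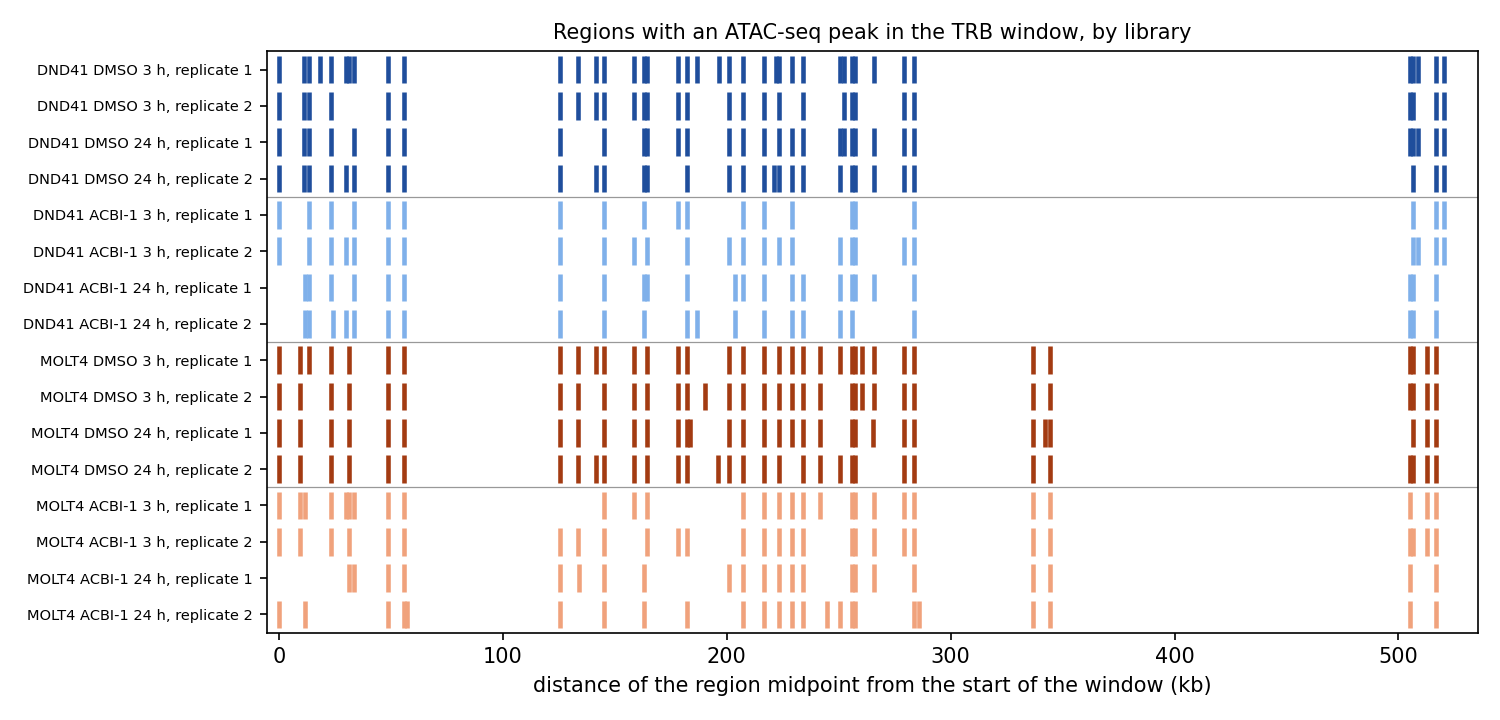
Regions with a peak in the TRB window by library. Rows, x axis (kb from the window start) and marks are as for TRG, and marks are not drawn to width. Most marks line up in both lines, and the pair of MOLT4 marks near 336 and 344 kb has no counterpart in DND41.

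In TRB, 10 regions had a peak in at least 15 libraries and 7 of them in all 16. The region from 142506181 to 142507258, near the high-coordinate end, was the least variable: its widths were 902 to 958 bp in all DND41 libraries and 908 to 960 bp in MOLT4 DMSO libraries, with 892, 949, 1078 and 975 bp in the MOLT4 ACBI-1 libraries. The region from 142045094 to 142046400, near the other end, had peaks of 747 to 1096 bp with DMSO and 475 to 1086 bp with ACBI-1. The other 5 in all libraries lay from 142038359 to 142039009, from 142134836 to 142135435, from 142206060 to 142206999, from 142245810 to 142246457 and from 142273296 to 142274128. Their mean DMSO widths were 316 to 590 bp. The regions from 142115355 to 142115994, from 142196937 to 142197960 and from 142246979 to 142248008 each lacked a peak in 1 ACBI-1 library.

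Peaks found in MOLT4 and absent from DND41 stood between the shared series and the high-coordinate end. The region from 142326251 to 142327158 had widths of 849, 843, 880 and 854 bp with DMSO and 379, 823, 782 and 818 bp with ACBI-1 in MOLT4. The region from 142333855 to 142334779 had widths of 604, 894, 902 and 836 bp with DMSO and 879, 793, 881 and 844 bp with ACBI-1. Neither had a peak in any DND41 library (exact permutation test, adjusted p = 0.0111 each). In the first region every ACBI-1 width of MOLT4 lay below its DMSO widths, and in the second the arms overlapped. This was not tested, and no share over the genome is given for such a separation. They lie in a stretch from 142274003 to 142494120, of 220 kb, without a peak in DND41. MOLT4 in turn had no peak from 142334780 to 142494139, a stretch of 159 kb. A peak in every MOLT4 library with none in DND41 was seen at 0.945% of regions over the genome, and these 2 were the ones in the receptor windows.

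Another 4 TRB regions were called more often in MOLT4. Those from 141998981 to 141999509 and from 142502361 to 142502711 were in all 4 DMSO libraries and both 3 h ACBI-1 libraries of MOLT4 and in no other library (exact permutation test, adjusted p = 0.0267 each). The region from 142020838 to 142021665 was in 7 MOLT4 libraries and 1 DND41 library (exact permutation test, adjusted p = 0.0311), and that from 142231429 to 142231959 in 5 MOLT4 and no DND41 libraries (adjusted p = 0.0433).

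Called more often in DND41 were 3 TRB regions. The region from 142003348 to 142003875 was in 8 DND41 libraries and 1 MOLT4 library (exact permutation test, adjusted p = 0.0184). That from 142153068 to 142153422 was in 7 DND41 libraries and in both 24 h ACBI-1 libraries of MOLT4 (adjusted p = 0.0433, exact permutation test). That from 142510144 to 142510458 was in all 4 DMSO and both 3 h ACBI-1 libraries of DND41 only (adjusted p = 0.0267, exact permutation test). The regions from 142000606 to 142001537 (all 4 DMSO libraries of DND41) and from 142242103 to 142242473 (3 of them) had no other peak and could not be tested. The region from 142023405 to 142024157 was in 7 DND41 libraries and in 2 ACBI-1 libraries of MOLT4, and did not pass the exact permutation test (adjusted p = 0.0594).

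Treatment was compared next. Both lines had fewer receptor regions with a peak in ACBI-1 libraries, as they had fewer peaks over the genome. In DND41 the mean went from 62.0 ± 7.16 with DMSO to 45.2 ± 5.85 with ACBI-1 (SD, n = 4 each), a change of -27.0%, beside -29.6% for all its peaks. In MOLT4 it went from 40.5 ± 1.29 to 31.8 ± 3.3 (SD, n = 4 each), a change of -21.6%, beside -25.9% for all peaks. By time, DND41 changed by -28.3% at 3 h and -25.6% at 24 h, beside -32.4 and -27.0% for all its peaks. MOLT4 changed by -16.9% at 3 h, a smaller share than the -30.8% of all its peaks, and by -26.6% at 24 h, a larger one than their -20.5%, with no test of these differences. In each line the highest ACBI-1 library, with 52 regions in DND41 and 35 in MOLT4, lay below the lowest DMSO library, with 55 and 39. By window, DND41 changed by -29.6% at TRA/TRD, -29.2% at TRB and -17.0% at TRG, and MOLT4 by -16.7, -22.7 and -16.7%. MOLT4 values at TRA/TRD and TRG rest on 5 regions or fewer per library. With lists of equal length, over both lines, the mean ACBI-1 minus DMSO difference was -0.125 regions at TRA/TRD instead of -2.88, -3.0 at TRB instead of -8.5, and 1.12 at TRG instead of -1.38, a change of sign. Such lists remove the difference in peak number between the arms by construction.

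**Figure D4:**
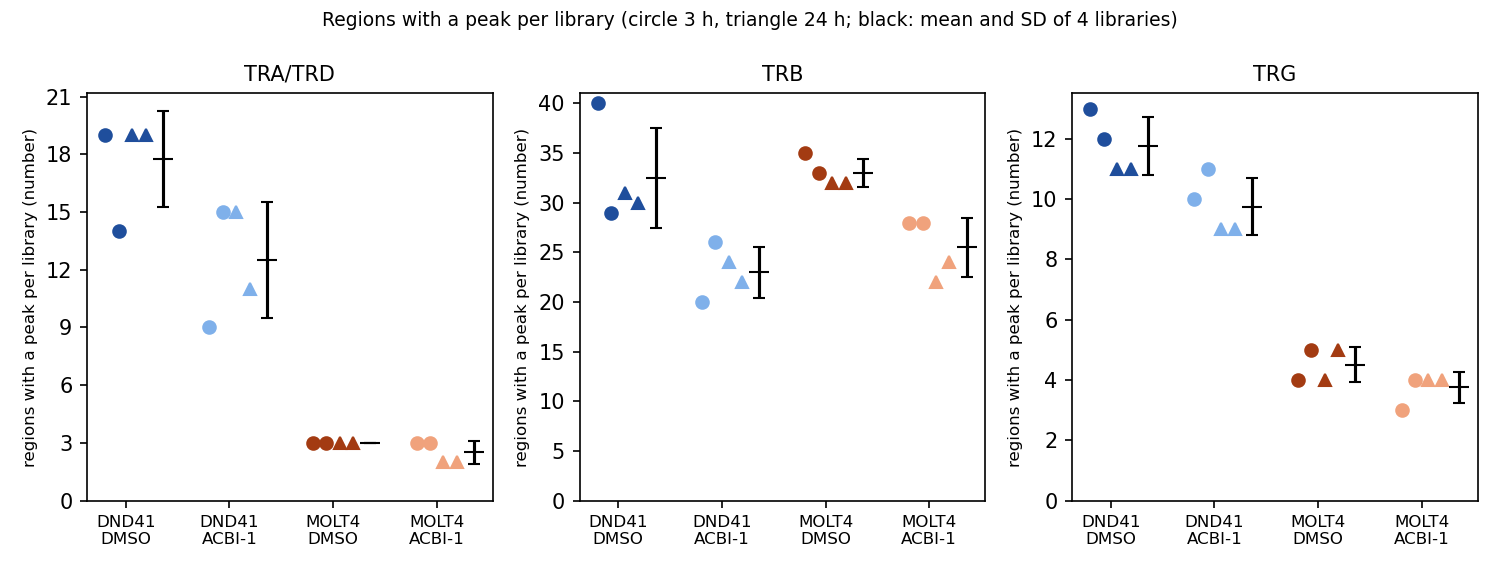
Number of regions with a peak per library in each window. Circles are 3 h and triangles 24 h libraries, and the black bar gives the mean and SD of the 4 libraries of a line and treatment. DND41 lies above MOLT4 at TRA/TRD and TRG, and the lines overlap at TRB.

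Of the receptor regions 8 could be tested for treatment. The region of TRB from 142190508 to 142191130 was lower with ACBI-1, at all 8 DMSO libraries against 1 of 4 ACBI-1 libraries in each line (exact permutation test within line and time, adjusted p = 0.0497), where 27.9% of 8082 tested regions were called lower over the genome. Its DMSO peaks were 141, 222, 424 and 183 bp wide in DND41 and 287, 430, 370 and 375 bp in MOLT4, and the 2 ACBI-1 peaks were 291 and 217 bp. This call lies at the edge of the threshold. It was lost when any library but DND41 ACBI-1 at 3 h replicate 2 was left out, with adjusted p-values of up to 0.0667, and also in the unstratified test, with a common minimum width, with shortened lists and with regions built from peak midpoints. No receptor region was called higher, beside 0.111% over the genome, and 0 had an unadjusted p under 0.05 in that direction, beside 0.445%.

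Before adjustment, 6 of the 8 had a p under 0.05 for fewer peaks with ACBI-1, beside 56.7% of regions over the genome, and 5 of these were not called after it. They were the TRG region from 38406899 to 38407312 (exact permutation test, adjusted p = 0.0729) and 4 in TRB. Those from 142123112 to 142123986 and from 142269153 to 142269530 came to 0.0573 after adjustment (same exact permutation test). Those from 142131150 to 142131804 and from 142168016 to 142168608 had 0.0729. The region from 142148367 to 142148976, in 6 DMSO and 2 ACBI-1 libraries, could not be tested. Of the 107 receptor regions, 19 were found in more ACBI-1 than DMSO libraries (17.8%, beside 29.2% over the genome), and 63 in fewer (58.9%, beside 54.8%). One of the 19, the TRB region from 142001747 to 142001979, had a peak in 4 libraries given ACBI-1 and in 0 given DMSO, and it was named after its values were seen. No share over the genome is given for this pattern. The neighbouring region, from 142000606 to 142001537, went the other way, with a peak in all 4 DMSO libraries of DND41 and in no other library.

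Loss of the peak call at 24 h after it was kept at 3 h was seen in both lines. Of 44 receptor regions found in all 4 DMSO libraries of DND41, 21 were kept in all 4 ACBI-1 libraries (60.4% over the genome) and 6 were in both ACBI-1 libraries of 3 h and neither of 24 h. Over the genome the latter share was 6.89%, or 1709 of 24799 regions. Of the 6 regions 4 lay in TRA/TRD and 2 in TRB. Of 35 such regions of MOLT4, 18 were kept in all ACBI-1 libraries (58.8% over the genome) and 6 were in both at 3 h and neither at 24 h, beside 8.67% over the genome. Of these 5 lay in TRB and 1, from 23030571 to 23031211, in TRA/TRD, the region that DND41 lost in the same way. The reverse course, neither at 3 h and both at 24 h, was seen for 1 region in DND41 and 0 in MOLT4, beside 1.12 and 0.957%. Neither at 3 h nor at 24 h were 1 region of DND41 and 0 of MOLT4, beside 7.99 and 8.88%. These shares were not tested, and the members are neighbours on 2 chromosomes.

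At single times, 6 of 54 receptor regions found in both DMSO libraries of DND41 at 3 h were in neither ACBI-1 library (11.1%), where the genome gave 20.9%. At 24 h there were 14 of 52 (26.9%), beside 27.1%. In MOLT4 there were 2 of 39 (5.13%) at 3 h, beside 22.2%, and 11 of 35 (31.4%) at 24 h, beside 27.7%. The receptor shares were below those of the genome at 3 h in both lines and close to them at 24 h, and this difference between times was not tested. Kept in both ACBI-1 libraries were 33 of 54 in DND41 at 3 h and 29 of 52 at 24 h, beside 61.2 and 59.7% over the genome, and 29 of 39 and 19 of 35 in MOLT4, beside 61.4 and 59.0%. The opposite change was rare: of the regions in both ACBI-1 libraries, those in neither DMSO library were 0 of 35 at 3 h and 3 of 35 at 24 h in DND41, beside 1.15 and 5.3%, and 0 of 29 and 1 of 22 in MOLT4, beside 1.48 and 4.57%.

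Between 3 h and 24 h, 3 receptor regions could be tested and 0 were called (exact permutation test), with 0 at an unadjusted p under 0.05. Over the genome 0 of 3762 were called, and before adjustment a p under 0.05 was reached by 7.95% for fewer and 7.71% for more peaks at 24 h.

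Peak width could be compared at the 11 receptor regions found in all 16 libraries. With ACBI-1 none passed the test, where 3.25% of 12037 such regions were called narrower over the genome and 0.0166% wider. The lowest p was that of the TRG region from 38272175 to 38273110, with 722 ± 127 bp with DMSO and 528 ± 133 bp with ACBI-1 (SD, n = 8 each). Its log2 width changed by -0.48 (SE 0.15), narrower in all 4 strata of line and time (exact permutation p = 0.00926, adjusted 0.084). The median log2 change over the 11 regions was -0.12, and -0.12 over all regions tested. Between the lines none passed the test in either direction, where 3.12% were called narrower and 6.16% wider in MOLT4 over the genome.

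At 24 h, 4 of the 11 regions were wider, where 30.8% of regions over the genome were called wider and 0.174% narrower. The region from 23024832 to 23026452 went from 775 ± 134 bp at 3 h to 1195 ± 126 bp at 24 h (SD, n = 8 each), a log2 change of 0.64 (SE 0.13; exact permutation test, adjusted p = 0.0157). The highest 3 h library had 932 bp and the lowest 24 h library 922 bp. The region from 142245810 to 142246457 went from 381 ± 63.3 to 515 ± 65.4 bp (exact permutation test, adjusted p = 0.0157), that from 23039201 to 23039713 from 238 ± 57.2 to 328 ± 83.5 bp (adjusted p = 0.0328), and that from 142506181 to 142507258 from 916 ± 18.9 to 958 ± 52.8 bp (adjusted p = 0.0437; SD, n = 8 each). The peak names carry the tag p04 at 3 h and p03 at 24 h, and time, preparation and what the tags stand for cannot be told apart. The number of wider regions was 2 without any 1 of 9 libraries: DND41 DMSO 3 h replicate 2, DND41 DMSO 24 h replicate 1 or 2, DND41 ACBI-1 3 h replicate 1 or 24 h replicate 1, and replicate 1 of MOLT4 DMSO or ACBI-1 at either time.

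**Figure D5:**
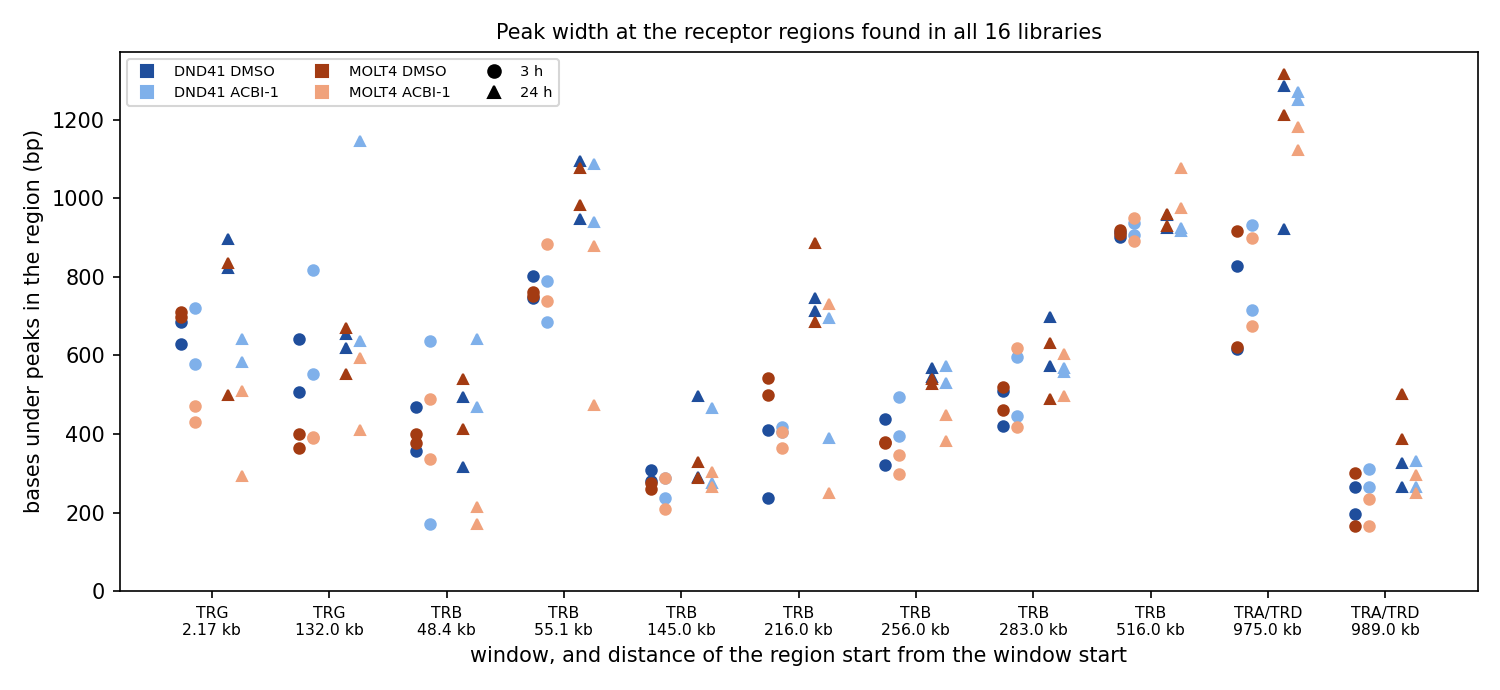
Bases under peaks, in bp, at the 11 receptor regions found in all 16 libraries. Each point is 1 library, with circles for 3 h and triangles for 24 h, and the x axis names the window and the distance of the region start from the window start. The TRB region at 516 kb varies least, and at the TRA/TRD region at 975 kb the 24 h libraries lie above the 3 h libraries but for 1 pair of overlapping values.

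The remaining receptor regions were mostly in few libraries. Of the 107 regions 27 were in 1 library only (25.2%, beside 51.0% over the genome) and 11 in all 16 (10.3%, beside 9.16%). At the edges of the windows the first TRB region, from 141989904 to 141990389, starts before the window and was in 13 libraries, and the next region outside, from 141947908 to 141948117, was in 1. The last TRA/TRD region was in 16 libraries, as was the next one outside, from 23057895 to 23058791. The outermost TRG regions inside the window were in 1 library each, and those just outside were in 8 at the low end and 1 at the high end.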

How the data were processed

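The authors deposited a peak list per library, whose 4 columns hold chromosome, start, end and peak name. Per the submitters' processing notes the build was hg19, and the tools listed are MACS2 (2.1.1.2016030), SAMtools, Bowtie2 and Picard, with neither their roles nor their parameters. These columns hold no heights or q-values, so the planned stricter q-value was not run. Read depth is not given in them either and is unknown here. The windows, the members and the lists were chosen with earlier results of these data known.

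Presence was tested with two-sided exact permutation tests over all regions, exchanging labels within 4 strata of 2 against 2 (1296 exchanges, smallest p 0.00154), where the peaks per stratum allowed a p of at most 0.05, and p-values were adjusted by Benjamini-Hochberg over all tested regions. Log2 width was tested alike, an analysis added after the data were seen, as were the stretches' content and the course over time. Regions were named when called or when in at least 15 libraries. They were also named when in at least 3 of 4 DMSO libraries of 1 line and no DMSO library of the other. The last rule was a peak in at least 6 libraries of 1 arm and at most 2 of the other. Regions that start at 23030571, 38406899, 142001747, 142131150 and 142269153 met none of these rules and were named after their values were seen. Regions at the window edges were given for their position. The tests were checked on simulated data. There, unchanged regions had the same rate of peaks in every library, so lists of unequal length were not covered. Python 3.11.15, NumPy 2.4.6 and pandas 2.3.3 were used. Coordinates are counted from 1.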

Additional observations from a re-analysis of the deposited data

Results flagged for a closer look

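Within the 4 libraries of a line and treatment, 56 sets of values were examined for 1 value far from the others, and 5 were found. The rule is set to flag about 1 in 20 sets of continuous values by chance. That rate does not hold for tied region counts, and each set joins 3 h and 24 h libraries. At TRA/TRD, DND41 DMSO 3 h replicate 2 had 14 regions with a peak and the other DMSO libraries of DND41 had 19 each. At TRG, MOLT4 ACBI-1 3 h replicate 1 had 3 regions and the others 4 each. In peak width, MOLT4 ACBI-1 24 h replicate 2 had 593 bp at the TRG region from 38402173 to 38403424, where the others had 390, 392 and 409 bp. DND41 DMSO 24 h replicate 1 had 497 bp at the TRB region from 142134836 to 142135435, where the others had 280 to 308 bp. DND41 ACBI-1 24 h replicate 1 had 695 bp at the TRB region from 142206060 to 142206999, where the others had 391 to 418 bp.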

How the results depend on the processing

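The difference between lines was the steadier result. With any 1 library left out, 19 to 22 regions were called more often in DND41 and 5 or 6 more often in MOLT4. No call changed direction under any setting tried. Most regions called between lines had no peak in the other line, so these settings could hardly turn a direction. The kept direction is thus no support. With lists shortened to the 26145 widest peaks each, 11 were called more often in DND41, and the difference in DMSO libraries, MOLT4 minus DND41, became -6.75 regions at TRA/TRD (from -14.8), -5.0 at TRG (from -7.25) and 6.5 at TRB (from 0.5). With these lists ACBI-1 minus DMSO became -0.125 regions at TRA/TRD (from -2.88), -3.0 at TRB (from -8.5) and, with the sign turned, 1.12 at TRG (from -1.38). Equal lengths remove the difference in peak number between the arms by construction. This setting therefore cannot show why the counts were lower with ACBI-1. With regions built from midpoints within 250 bp the line difference at TRG was -8.25, and it was -8.25 to -6.83 with each library left out. The 1 region called lower with ACBI-1 became 0 in the unstratified test, with a common minimum peak width of 170 bp, with equal lists and with midpoints, and was 0 or 1 with a library left out. The longest stretch without a peak of DND41 at TRA/TRD was 166 kb, 211 kb with the common minimum width, 281 kb with equal lists, 289 kb with peaks supported by another library (added after the data were seen) and 166 to 229 kb with a library left out. That of MOLT4 was 999 to 1030 kb. Regions wider at 24 h numbered 2 to 5 with a library left out, and those narrower in MOLT4 0 or 1 (1 without DND41 DMSO 3 h replicate 2 or MOLT4 DMSO 24 h replicate 2). Of the p-values of single regions under the alternatives, 585 stayed on their side of the threshold and 24 passed above it. Calls that became untestable are in neither number. With the shortened lists these were the line calls at the regions that start at 22382031, 22564151, 38370464, 38379893, 38397867, 142153068, 142231429 and 142510144. Some other alternatives also left a region untestable. Replicate numbers did not pair the libraries (correlations of deviations of -0.04 to 0.0). With the replicate block, 17 regions were called more often in DND41, 5 in MOLT4 and 1 lower with ACBI-1, and 3 regions were wider at 24 h (an alternative added after the data were seen). Midpoint regions were not applied to stretches.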
